A study of Homo sapiens with 4 samples.

Results

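ABCA3, ABCA5, ABCA7, ABCC3 and ABCG1 are 5 of the 9885 genes for which numbers of events per gene were deposited with the RNA-seq of 4 ovarian cancer cell lines. They were selected by gene symbol on these event numbers, as lipid and drug exporters whose numbers for the most part stood out in 1 of the lines, so the numbers are given here as a description and carry no test. The lines all derive from HeyA8, a human ovarian cancer line. A8 is HeyA8 itself. A8i was made from it with a short hairpin RNA that silences ECM1 (extracellular matrix protein-1). A8i-A is A8i with stable expression of the ECM1a isoform, and A8i-B is A8i with stable expression of the ECM1b isoform. A8i-A and A8i-B therefore still carry the hairpin and its puromycin selection, and each received in addition an HA-tagged cDNA under a further selection, by drug or by GFP sorting. Whether a line is 1 clone was not stated in the sources used here, and no line with a scrambled hairpin or an empty vector was analysed here. Each line gave 1 library, so that every difference below is one between libraries and has no replicate check.

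ATP-binding cassette (ABC) proteins use the energy of ATP to move substrates across membranes. A full transporter joins a pair of ATP-binding domains and a pair of membrane domains in 1 chain. Shorter family members have a single set and work as dimers. ABCG1 is of the shorter kind. It passes cellular sterols on to high-density lipoprotein, and the study followed ABCG1 up in cisplatin resistance. ABCA3 loads phospholipids into lamellar bodies, ABCA5 is found in late endosomes and lysosomes, and ABCA7 exports phospholipids and takes part in phagocytosis. ABCC3, also known as MRP3, exports conjugated organic anions.

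A feature these genes share, which did not serve to select them, is the ATP-binding motif itself. The codons of the Walker A motif, the loop that holds the phosphates of ATP, were located in the canonical coding transcript of each gene in the GENCODE v44 annotation of GRCh37, as a glycine, any 2 residues, a glycine, any residue, a glycine, a lysine and then a serine or threonine. They are shown because they tell the full transporters from the shorter ABCG1. The motif was found at 2 places in ABCA3, ABCA5, ABCA7 and ABCC3 and at 1 place in ABCG1. Capitals mark its 24 bases, with 3 flanking bases on each side, and the coordinates are those of the capitals.
ABCA3 first site, chr16:2349426-2349449, reverse strand, exon 14: ctgGGCCACAACGGTGCCGGGAAGACCacc
ABCA3 second site, chr16:2331118-2331141, reverse strand, exon 28: ctgGGCTTCAATGGAGCCGGGAAGACCacg
ABCA5 first site, chr17:67287400-67287423, reverse strand, exon 12: cttGGCCACAGTGGAACAGGAAAGAGTaca
ABCA5 second site, chr17:67251732-67251755, reverse strand, exon 31: ttgGGTCCAAATGGTGCTGGCAAAAGCaca
ABCA7 first site, chr19:1049405-1049428, forward strand, exon 18: ctgGGCCACAACGGGGCCGGCAAGACCacc
ABCA7 second site, chr19:1061796-1061819, forward strand, exon 41: ctgGGTGTGAATGGAGCAGGGAAGACGtcc
ABCC3 first site, chr17:48746544-48746567, forward strand, exon 16: gtgGGGCCTGTGGGCTGTGGGAAGTCCtcc
ABCC3 second site, chr17:48761322-48761345, forward strand, exon 28: gtgGGCCGCACTGGGGCTGGCAAGTCTtcc
ABCG1 only site, chr21:43691245-43691268, forward strand, exon 3: atgGGTCCTTCCGGGGCCGGGAAGTCCacg
Every site lay within 1 coding exon. The most alike were the first sites of ABCA3 and ABCA7, with 22 of 24 bases identical, and the least alike the first sites of ABCA5 and ABCC3, with 10 of 24. The event numbers are given per gene, so no event could be placed at or away from these codons.

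The deposited values are whole numbers from 0 to 32, and neither the paper nor the sample labels state what kind of event was counted. They are not expression levels. The libraries held between 20535 (A8i) and 24513 (A8) events and the totals were not scaled to depth. The sequencing yield is known as a range, with no number of reads for each library. The number of ECM1 itself was 2 in every library and gave no check of the silencing. Of the epithelial and ovarian marker genes, 7 of 9 were analysed here. PAX8 had 7 to 11 and KRT8 5 to 7 events, and EPCAM was at 0 in all 4 libraries. The rest had few: MSLN 1 to 3, KRT7 1 or 2, WT1 0 or 1, and KRT18 1 in every library. Of 8 markers of blood, endothelial and stromal cells, only COL1A1 was analysed here, with at most 1 event.

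ABCG1 (ENSG00000160179; chromosome 21, 43619799 to 43717354, forward strand) had 1 event in A8i and 2 events each in A8, A8i-A and A8i-B. The A8i library was thus 1 event below the other 3, which were equal to each other. This is the smallest step the values allow, and both isoform lines stood at the number of the parental line. In the paper, ABCG1 mRNA and protein were low in A8i and A8i-B and higher in A8 and A8i-A. Those are levels, which the event numbers do not measure. The same 4 numbers were listed for 77 other genes, among them HNRNPLL, which encodes a splicing regulator that the study also followed up; it was picked out here after its values had been seen.

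ABCA7 (ENSG00000064687; chromosome 19, 1039996 to 1065571, forward strand) had 4 events in A8i against 13 in A8, 12 in A8i-A and 10 in A8i-B. It had the most events of the 5 genes, and its number in A8i was 9 below A8 and 6 to 8 below the lines with an isoform. In A8, 106 of the 9885 genes (1.07%) had 13 or more events, whereas in A8i, 1840 genes (18.6%) had 4 or more. Scaled to the library total it held 1.95 of every 10000 events in A8i against 5.30 in A8, 5.29 in A8i-A and 4.13 in A8i-B, so A8i stayed lowest once its smaller total was allowed for. No other gene had the same 4 numbers, and the nearest pattern, a summed difference of 4 events over the 4 libraries, was that of RP11-564C24.1 with 12, 5, 11 and 9 events.

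ABCA5 (ENSG00000154265; chromosome 17, 67240452 to 67323385, reverse strand) had 3 events in A8 and was listed at 0 in A8i, A8i-A and A8i-B. Neither line with a re-expressed isoform had an event, in contrast to ABCA7 and ABCG1, whose numbers in those lines were at or near that of A8. The same 4 numbers were listed for 12 other genes. In the annotation the end of ABCA5 overlaps ABCA10, its neighbour on the same strand, and ABCA10 was not analysed here.

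ABCC3 (ENSG00000108846; chromosome 17, 48712138 to 48769614, forward strand) went the other way. It had 4 events in A8i and was listed at 0 in A8, A8i-A and A8i-B. Its number in A8i was 1.33-fold a floor of 3 events, a set value for a library at 0. The ratio leaves out the counting error of the 4 events, so it is no lower bound. The pattern was shared with 2 genes, TEX10 and ZNF652.

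ABCA3 (ENSG00000167972; chromosome 16, 2325882 to 2390747, reverse strand) had a single event, in A8i, and was listed at 0 in A8, A8i-A and A8i-B. It was in the same library as the events of ABCC3, but 207 other genes had the same 4 numbers, ABCB10 and ABCE1 among them. The start of ABCA3 overlaps ABCA17P, a pseudogene on the opposite strand that was not analysed here.

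The library that stood apart was A8i for ABCA7, ABCG1, ABCC3 and ABCA3, and A8 for ABCA5. A8i was below each of the other 3 libraries for ABCA7 and ABCG1, as it was for 14.6% of all genes. An event in A8i alone, the pattern of ABCC3 and ABCA3, was listed for 2.37% of all genes, and one in A8 alone, the pattern of ABCA5, for 4.3%. These numbers chose the genes, so the shares are only a scale. At the sizes seen here the patterns were rarer: A8i below all others by at least 6 events in 0.0809% of genes (8 of 9885), 3 or more events in A8 alone in 0.223% (22 genes), and 4 or more events in A8i alone in 0.0303% (3 genes). These limits were set at the members' own values after they had been seen.

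Between A8i and A8, the comparison that addresses silencing of ECM1, genes at least 2-fold apart were counted on the scale of events + 1. ABCA5 and ABCA7 were lower in A8i, 2 of 5 genes, beside 20.2% of all genes. ABCC3 and ABCA3 were higher, again 2 of 5, beside 8.62% of all genes. When genes at 0 in any library were left out, which keeps ABCA7 and ABCG1 of the 5, these shares of all genes were 7.77% and 3.04%. ABCG1, with a log2 ratio of -0.58 against -1.49 for ABCA7, was under the limit. A single event in 1 library and none in the other already reaches this limit, as for ABCA3.

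Against A8i, the line with ECM1a had 1 gene at least 2-fold higher, ABCA7 (log2 ratio 1.38), beside 18.1% of all genes, and 2 lower, ABCC3 and ABCA3, beside 11.1%. The line with ECM1b had the same split, with ABCA7 higher (log2 ratio 1.14) beside 20.4% of all genes and ABCC3 and ABCA3 lower beside 9.21%. With shares of the library total the log2 ratio of ABCA7 in A8i-B was 0.94, under the 2-fold limit. All 3 of these comparisons share the A8i library, so the numbers of ABCA7, ABCC3 and ABCA3 in that library enter each of them.

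The isoform lines were then set against each other. Between A8i-A and A8i-B, none of the 5 genes was 2-fold higher or lower, beside 11.7% and 16.2% of all genes. ABCA7 was 2 events higher in A8i-A and the other 4 genes had equal numbers. Against A8, ABCA5 was the 1 gene at least 2-fold lower, in A8i-A beside 16.2% of all genes and in A8i-B beside 13.8%. None was higher in A8i-A, beside 11.3% of all genes, or in A8i-B, beside 13%.

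No replicate tells how far such numbers move by themselves, but counting error can be set beside them. The events of ABCA7 in A8 and A8i together were 17, of which 4, or 23.5%, were in A8i (95% exact Clopper-Pearson interval, 6.81 to 49.9%). The A8i library held 45.6% of all events of the 2 libraries. For ABCC3 all 4 events were in A8i, with an interval from 39.8 to 100%, and for ABCA5 none of 3, with an interval from 0 to 70.8%. For ABCG1, 1 of 3 events was in A8i, with an interval from 0.84 to 90.6%. Each of these intervals held the 45.6% of the totals. The genes were selected on these same numbers, so the intervals do not keep their 95% coverage. They also treat each event as independent of the others, reflect counting error alone and say nothing of variation between cultures. They are wide because the numbers are small, and they do not show that the genes were alike in the libraries.

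The genes of the table give a further measure of the spread between libraries. Each count below includes the ABC gene that it is set beside. Of the 27 genes with 13 events in A8, 4 (14.8%) had 4 or fewer in A8i, with a median of 10 in A8i. In the wider band of 11 to 15 events in A8, 18 of 176 genes (10.2%) had 4 or fewer in A8i. Seen from A8i, of the 600 genes with 4 events there, 4 (0.667%) had 13 or more in A8. Of the same 600, 2 (0.333%) had 12 or more in A8i-A and 11 (1.83%) had 10 or more in A8i-B. These limits are ABCA7's own numbers, on which it was selected, as holds for the genes below. Over all genes, 13 or more events in A8 was rare (1.07%), and 4 or more in A8i was common (18.6%). Of the 1070 genes with 3 events in A8, 102 (9.53%) were at 0 in A8i, as ABCA5 was. Of the 1759 genes at 0 in A8, 14 (0.796%) had 4 or more events in A8i, as ABCC3 had, and 643 (36.6%) had at least 1, as ABCA3 had. The step of ABCG1 was common, since 805 of the 1800 genes with 2 events in A8 (44.7%) had 1 or none in A8i.

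**Figure D1:**
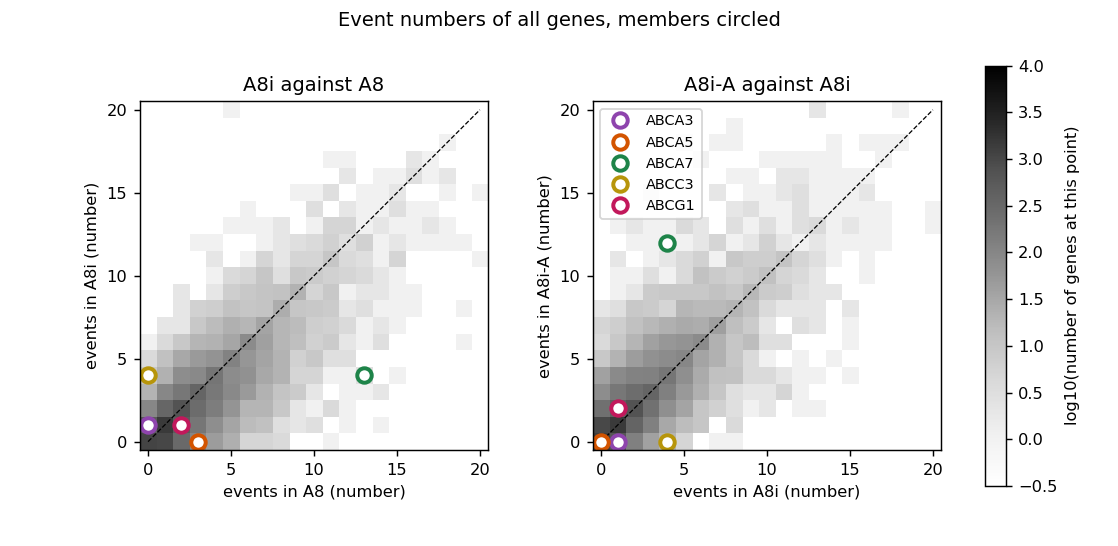
Events per gene in A8i against A8 (left) and in A8i-A against A8i (right) for all genes with up to 20 events (13 and 11 genes lie outside), shaded by the log10 number of genes at each point, with the 5 ABC genes as circles and a dashed line at equal numbers. ABCA7 (13 and 4 on the left, 4 and 12 on the right) lies at the edge of the cloud on both sides, ABCC3 lies on an axis, and ABCG1 lies next to the line.

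The 5 genes were set beside the rest of their family. Of 48 human ABC genes listed by subfamily, 24 were analysed here, the 5 and 19 others. The 5 genes together had 10 events in A8i against 18 in A8, 14 in A8i-A and 12 in A8i-B. ABCA7 gave 13 of the 18 events in A8, 4 of the 10 in A8i, 12 of the 14 in A8i-A and 10 of the 12 in A8i-B. Without ABCA7, an alternative added after seeing the data, the sum in A8i was 120% of that in A8, against 55.6% with it. Of the 28 events in A8 and A8i, 35.7% were in A8i (95% exact Clopper-Pearson interval, 18.6 to 55.9%). The 19 other genes had 50, 47, 45 and 57 events, and 48.5% of their events in A8 and A8i were in A8i (38.2 to 58.8%). The 5 genes were selected on these numbers and the 19 others were not. These shares are therefore a description and no measure of a difference from the family.

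Within subfamily A, the lipid transporters, the 5 measured genes had 22 events in A8 and 10 in A8i, and ABCA7 made up 9 of the difference of 12. ABCA1, the close relative of ABCA7 that exports cholesterol to apolipoprotein A-I, had 1 event in A8 and 0 in the other libraries, the same libraries as ABCA5. ABCA2 had 3 events in A8i-A, 5 in A8 and in A8i, and 6 in A8i-B. ABCG1 was the only gene of subfamily G, which exports sterols and drugs, analysed here.

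In subfamily C, which holds the multidrug resistance proteins, ABCC3 had its 4 events in A8i alone, while ABCC10 had 5 in A8 and 4 in A8i-A but 2 in A8i and A8i-B. ABCC1, the founding drug exporter of the subfamily, had 0 events in A8i and 1 in each other library. ABCC5 had 5 events in A8, A8i and A8i-A and 7 in A8i-B. The subfamily as a whole had 11 events in A8 and 11 in A8i, so that the events of ABCC3 in A8i stood against fewer of ABCC10 and ABCC1.

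Among the 19 other ABC genes, 3 were at least 2-fold higher in A8i than in A8 (ABCB10, ABCD3 and ABCE1) and 4 lower (ABCA1, ABCC1, ABCC10 and ABCF2), or 15.8% and 21.1% beside 8.62% and 20.2% of all genes. Of these 7 genes, 6 differed by a single event. With shares of the library total, 2 of the 24 ABC genes were at least 2-fold lower in A8i, ABCA5 and ABCA7, and none of the 4 was. On the higher side 5 of the 24 remained, ABCB10, ABCD3 and ABCE1 among them. A single event is a larger share of the smaller A8i total, so this scaling does not treat the directions alike. The median log2 ratio over the 24 genes was 0, as over all genes. The only other ABC gene with 10 or more events in any library, ABCD4, which serves lysosomal cobalamin transport, had 11, 13, 11 and 17 events in A8, A8i, A8i-A and A8i-B and so had no low number in A8i.

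**Figure D2:**
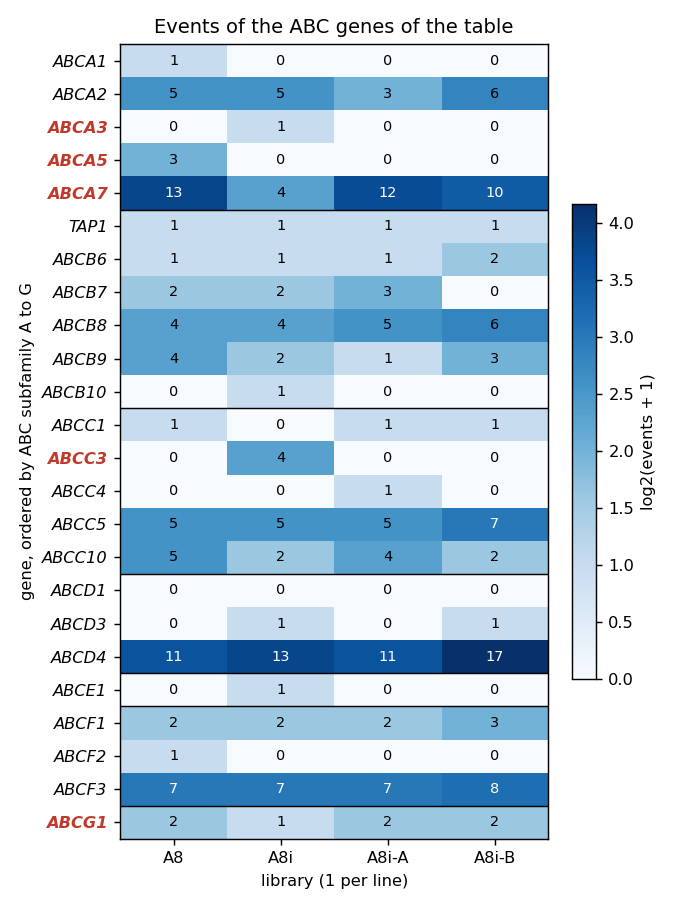
Number of events of the 24 ABC genes in the table (rows, ordered by subfamily A to G with lines between them) in the 4 libraries (columns), printed in each cell and shaded by log2(events + 1), with the 5 genes described here in red. ABCA7 is the only row with 10 or more events in A8, A8i-A and A8i-B and under 5 in A8i, and ABCD4, the other event-rich row, has 11 to 17 in all 4 libraries.

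Genes with more annotated transcripts had more events in this table. The highest number over the 4 libraries had a median of 1 in the 2330 genes with 1 to 5 transcripts, 4 in the 1015 genes with 16 to 20 and 5 in the 1400 genes with over 20. Across the 9818 genes matched to the annotation, Spearman's rho of that number was 0.45 with the number of transcripts and 0.049 with the length of the longest transcript. These are descriptions across genes, which are no replicates and share their libraries. ABCA7 and ABCC3 both have 18 annotated transcripts, more than 80.4% of the genes have, yet their highest numbers were 13 and 4. In the bin of 16 to 20 transcripts, 2.76% of genes had a highest number of 13 or more. ABCA5, with 14 transcripts and 39 exons in its canonical one, and ABCG1, with 11 and 15, had highest numbers of 3 and 2. ABCA3, with 6 transcripts, had 1. The coding sequences run from 1998 nt in ABCG1 to 6438 nt in ABCA7, and the canonical transcript of ABCA7 has 47 exons, more than in 98.4% of the genes. This share was also high for ABCA5 (97.3%), ABCA3 (95.7%) and ABCC3 (94.7%), and was 70.9% for ABCG1. Spearman's rho of the highest number was 0.24 with canonical exons (9778 genes) and 0.43 with distinct exons.

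The pathways in which these transporters work were described in the same way. Of 25 genes of sterol and phospholipid handling, 22 were analysed here, and 3 were at least 2-fold lower and 2 higher in A8i than in A8, beside 20.2% lower and 8.62% higher over all genes, with a median log2 ratio of 0 as over all genes. RXRB, a partner of the liver X receptors that switch on ABCG1, had 7, 2, 3 and 4 events in A8, A8i, A8i-A and A8i-B. NR1H3, which encodes one of those receptors, had 3, 2, 3 and 3. NR1H2, which encodes the other, had 4, 4, 5 and 6, with no lower number in A8i than in A8. RXRA, of the same list, was at 0 in every library. NPC1, which releases cholesterol from lysosomes, had 4, 1, 1 and 2 events, and LCAT, which esterifies cholesterol on lipoproteins, had 1, 4, 3 and 1. Against A8i, A8i-A had 1 gene of this list at least 2-fold higher, STARD3, an endosomal cholesterol carrier with 10, 7, 15 and 11 events, and 2 lower, PLTP with 2, 2, 0 and 0 and SOAT1 with 0, 1, 0 and 1; over all genes, 18.1% were higher and 11.1% lower.

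Of 23 genes of cisplatin and drug handling, 13 were analysed here. In A8i against A8, 4 were at least 2-fold lower and 0 higher, where 20.2% of all genes were lower and 8.62% higher. Apart from KEAP1 these were ATP7A, NFE2L2 and LRRC8D, which differed by a single event, with 1 in A8 and 0 in A8i. KEAP1, which restrains the oxidative stress response, had 2 events in A8, A8i-A and A8i-B and 0 in A8i, the log2 ratio farthest from 0 in the list between A8i and A8. ATP7A, a copper pump also tied to platinum export, had 1 event in A8 and 0 in the other 3 libraries. Its relative ATP7B had 3 events in A8i-B alone. Against A8i, 3 genes of the list were at least 2-fold higher in A8i-A and none was lower, beside 18.1% higher and 11.1% lower over all genes. In A8i-B 3 were higher and 3 lower, beside 20.4% and 9.21% of all genes.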

How the data were processed

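RNA-seq was made from 1 library of each of 4 lines, grouped by the sample labels. Per the paper, RNA was isolated with TRIzol, sequenced paired-end, trimmed with Trim Galore, mapped to hg19 with TopHat and quantified with Cufflinks. The submitters' processing notes give Cufflinks 2.2.1 and name GRCm38, a mouse build, although 9818 of the 9885 gene identifiers (99.3%) matched the human GENCODE v44 annotation of GRCh37. The values deposited by the authors are other than reads or FPKM: whole numbers of events per gene, of a kind and a program not given in the sources used here. Columns left unused numbered 0.

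From these, differences, log2((events + 1)/(events + 1)), shares of the library total and 95% exact Clopper-Pearson intervals of splits between libraries were computed. A gene was counted as apart from 2-fold. No test of conditions was possible with 1 library per line.

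The genes, gene lists and limits were chosen with earlier results of these data known. Besides the 5 genes, genes were named if among the 2 highest or 2 lowest log2 ratios of a list. The ratios were those of A8i against A8 and of A8i-A against A8i. Others (HNRNPLL, NR1H3, NR1H2, RXRA and those listed to complete a count) were chosen after their values were seen. Motif codons came from GENCODE coding sequences that equalled the GRCh37 genome base for base. Python 3.11.15, numpy 2.4.6, pandas 2.3.3, scipy 1.17.1, Biopython 1.88 and matplotlib 3.10.9 were used. Alternatives were scaling, pseudocount, threshold and gene set.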

Additional observations from a re-analysis of the deposited data

How the results depend on the processing

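The sign of no 2-fold difference of the 5 genes turned under share scaling or a pseudocount of 0.5 or 0.1. A pseudocount cannot turn a sign, and neither can scaling where a library is at 0. The check was therefore open only for ABCA7 under scaling. The sizes depended on the pseudocount. At 0.1, the log2 ratio of A8i over A8 went from 2.32 to 5.36 for ABCC3 and from -2 to -4.95 for ABCA5. That of ABCA3 went from 1 to 3.46, and that of ABCA7 from -1.49 to -1.68. A 3-fold limit left ABCC3 as the 1 gene higher and ABCA5 as the 1 lower in A8i than in A8, 0 higher and 1 lower in A8i-A than in A8i, and 0 higher and 1 lower in A8i-B than in A8i. With shares of the library total, 0 of the 5 genes was 2-fold higher in A8i-B than in A8i. For all ABC genes, the 3-fold limit left 1 higher and 1 lower in A8i than in A8, 0 and 1 in A8i-A than in A8i, 0 and 2 in A8i-B than in A8i, 1 and 0 in A8i-A than in A8i-B, 0 and 1 in A8i-A than in A8, and 0 and 2 in A8i-B than in A8. Share scaling left 2 ABC genes lower in each of the 3 derived lines than in A8, 0 higher in A8i-B than in A8i or A8, and 0 lower in A8i-A than in A8i-B; under it, a step from 0 to 1 event can miss the limit. When genes at 0 in any of the 4 libraries were left out, the shares at least 2-fold higher and lower were 3.04% and 7.77% in A8i against A8, 7.27% and 4.36% in A8i-A against A8i, 8.6% and 3.54% in A8i-B against A8i, 4.21% and 6.63% in A8i-A against A8i-B, 3.96% and 6.15% in A8i-A against A8, and 5.13% and 5.16% in A8i-B against A8. With at least 2 events required, 11 of 18 ABC genes counted as having an event in A8i. Without ABCA7, an alternative added after seeing the data, the other 4 genes had in each isoform line 33.3% of their events in A8i, against 140% and 120% with it, so ABCA7 alone set the higher sums.

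No paired analysis was possible because each line has 1 library. For the same reason no library was left out, and each pattern rests on its 1 departing library. The sequencing yield is known as a range and not by library.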
